A study of Homo sapiens with 10 samples.

Results

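The genes of MHC class I antigen presentation were followed through knockdown of ZHX2 and of p65 in 786-O cells, which are a human renal carcinoma line of the clear-cell type without working VHL. The members were 9 listed genes of 22426 measured, namely B2M, HLA-B, HLA-C, HLA-E, HLA-F, TAP1, TAP2, TAPBP and NLRC5. They were read through 44 of the 24471 probe sets that name 1 gene only. Some of these probe sets held identical values on all 10 arrays and were not independent, so the 44 probe sets gave 28 distinct profiles. Distinct profiles of a gene could still be near copies. On replicate 1 of the scrambled control hairpin, a pair of HLA-E profiles read 9.93 and 9.95. A pair of TAPBP profiles read 11.519 and 11.517 there. Agreement between the profiles of a gene is therefore not independent support.

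A class I molecule is a heavy chain (here the products of HLA-B, HLA-C, HLA-E and HLA-F) paired with the light chain β2-microglobulin (B2M), and it displays peptides from inside the cell to CD8+ T cells and natural killer cells. The TAP transporter, a heterodimer of TAP1 and TAP2, carries peptides into the endoplasmic reticulum, where tapasin (TAPBP) bridges it to new heavy chains. NLRC5 is the class I transactivator, which acts through promoter-bound RFX, CREB and NF-Y proteins, while NF-kB and interferon regulatory factors bind further upstream in the same promoters. Recognition of renal carcinoma cells by CD8+ T cells depends on this pathway.

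ZHX2 is a zinc-finger and homeobox transcription factor, and p65, encoded by RELA, is a subunit of NF-kB. The cells received a lentiviral short hairpin RNA and were kept under puromycin at 2 ug/ml. The ZHX2 table held ZHX2 hairpin 44, ZHX2 hairpin 45 and a scrambled hairpin, and the p65 table held p65 shRNA and its own control shRNA, with 2 arrays in each of the 5 groups. All groups, controls included, therefore carried a hairpin vector and had passed drug selection. Whether the replicates came from separate cultures is not in the labels. The p-values therefore measure the spread between these arrays alone, which may be technical. The labels also do not say how the control shRNA relates to the scrambled hairpin. The 2 tables belong to different platform records and were taken as normalized separately, so no level was set across them and the difference between the ZHX2 and p65 effects was not tested.

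Signals are log2 values after RMA, and differences are on that scale, with knockdown minus control. Across genes the replicate arrays correlated with r between 0.993 and 0.995 in the ZHX2 table and with r of 0.985 and 0.987 in the p65 table, and the SD of the difference between replicates was 0.197 to 0.239 and 0.40 to 0.427. ZHX2 itself read 9.35 and 9.38 with hairpin 44, 8.93 and 9.02 with hairpin 45, and 10.58 and 10.43 with the scrambled hairpin. It fell by 1.14 with hairpin 44 and by 1.53 with hairpin 45 (limma adjusted p = 0.00528 and 0.000926). The hairpin 44 call was lost without either of its arrays (limma adjusted p = 0.0662 and 0.0649). RELA read 5.04 and 5.28 with p65 shRNA, against 7.64 and 7.67 with control shRNA, a difference of -2.50 (SE 0.178, limma adjusted p = 0.0732). This missed the threshold of 0.05 in the main test and passed it when limma let the variance follow signal intensity (adjusted p = 0.00132). Of 7 measured renal epithelial markers, 7 lay above the median gene on every ZHX2-table array and 6 on every p65-table array. Of 9 leukocyte markers, at most 1 (NKG7) lay above it on any array.

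Promoter sequence was available for 7 of the members from RefSeq (GRCh38.p14), and the windows below are shown because they carry the elements through which NF-kB, interferon regulatory factors, CREB and NF-Y proteins are known to act on class I genes. Each window spans the motif matches found in the 250 bases before the annotated start, 5′ to 3′ on the strand of the gene. Capitals mark matches on either strand to the NF-kB consensus, to the core of the element bound by interferon regulatory factors (AANNGAAA), to the CRE core (TGACG) and to the CCAAT box (CCAAT). The motifs were chosen with the known class I promoter elements in view.

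B2M: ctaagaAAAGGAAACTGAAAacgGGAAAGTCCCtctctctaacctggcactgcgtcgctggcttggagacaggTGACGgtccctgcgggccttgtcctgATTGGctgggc
HLA-B: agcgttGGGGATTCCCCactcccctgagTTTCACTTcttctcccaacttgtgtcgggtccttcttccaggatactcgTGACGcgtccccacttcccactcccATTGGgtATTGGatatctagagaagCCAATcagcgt
HLA-C: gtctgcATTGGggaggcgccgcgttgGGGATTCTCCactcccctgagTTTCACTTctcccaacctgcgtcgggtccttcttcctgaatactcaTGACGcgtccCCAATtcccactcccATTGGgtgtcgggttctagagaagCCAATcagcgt
HLA-F: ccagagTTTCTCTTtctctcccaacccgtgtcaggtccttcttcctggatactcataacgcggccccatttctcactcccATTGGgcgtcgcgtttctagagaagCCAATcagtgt
TAP1: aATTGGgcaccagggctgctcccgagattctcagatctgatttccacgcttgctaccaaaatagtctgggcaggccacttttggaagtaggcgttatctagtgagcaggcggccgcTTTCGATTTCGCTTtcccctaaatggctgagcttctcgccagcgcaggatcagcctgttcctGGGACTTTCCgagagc
TAP2: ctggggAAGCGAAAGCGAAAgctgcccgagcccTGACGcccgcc
TAPBP: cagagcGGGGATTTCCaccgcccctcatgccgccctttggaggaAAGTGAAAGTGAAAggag

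The B2M window is at chr15:44711369-44711478 on the plus strand. The others lie in the MHC on chromosome 6, with HLA-F at chr6:29723272-29723387 on the plus strand and, on the minus strand, HLA-C at chr6:31272138-31272290, HLA-B at chr6:31357225-31357362, TAP2 at chr6:32838764-32838807, TAP1 at chr6:32853761-32853954 and TAPBP at chr6:33314079-33314140. B2M, HLA-B and HLA-C held all 4 motifs, a combination present in 21 of 35116 promoters of this length (0.0598%). TAP1 held the NF-kB consensus, the IRF core and a CCAAT box, TAPBP the NF-kB consensus and the IRF core, HLA-F the IRF core and CCAAT boxes, and TAP2 the IRF core and a CRE core. The IRF core was thus in 7 of 7, the NF-kB consensus in 5, a CCAAT box in 5 and the CRE core in 4, against 20.3%, 9.96%, 32% and 21.2% of all promoters. In HLA-B the NF-kB run holds 4 overlapping matches, and in B2M, TAP1, TAP2 and TAPBP a pair of IRF core matches overlap. The 250 bases of HLA-B and HLA-C were 89% identical and those of HLA-F were 80.4% identical to HLA-B and 78.7% to HLA-C, while every other pair lay between 47.3% and 51.9%. A match to these letters is a description of the sequence and not a measured binding site.

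**Figure D1:**
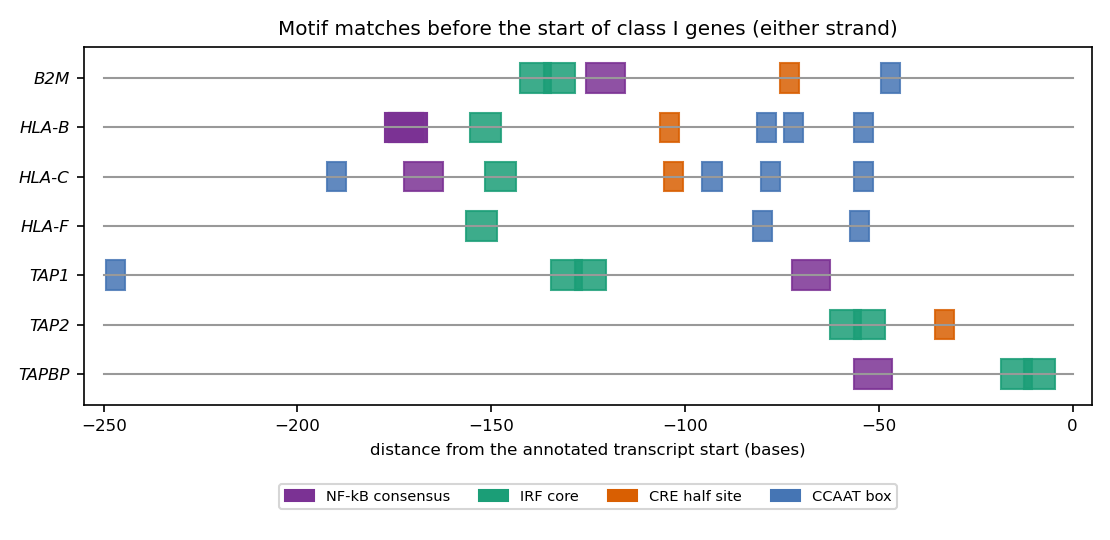
Motif matches on either strand (coloured boxes) in the 250 bases before the annotated start of 7 class I genes, with distance from the start in bases on the horizontal axis and overlapping matches drawn over each other. B2M, HLA-B and HLA-C carry all 4 motifs and TAP2 has no NF-kB match in this window.

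Setting the average of both ZHX2 hairpins against the scrambled hairpin asked how class I genes respond to less ZHX2. Light chain and heavy chain, transporter and tapasin genes read lower with 1 exception, TAP2, which read higher. Of the 9 genes, 3 fell (B2M, HLA-E and TAP1), 1 rose (TAP2) and 5 were not called at a limma adjusted p under 0.05, where 18.3% of all genes were called, 6.41% lower and 11.9% higher. In 9 of 9 genes the 4 hairpin arrays did not overlap the 2 scrambled arrays, 8 of them lower, against 38.3% of all genes without overlap and 16.4% lower without overlap. At an unadjusted p under 0.05 there were 8, beside 32.2% of all genes, and with limma's intensity trend 6 were called, beside 26.2%. The median difference of the members was -0.22, beside -0.00 over all genes. In bulk RNA, fewer cells expressing a gene and less of its RNA per cell cannot be told apart. The calls were close to the threshold: with 1 array left out, which leaves 1 array in a group, most or all of them were lost. Calls over all genes also became fewer with 1 array left out.

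**Figure D2:**
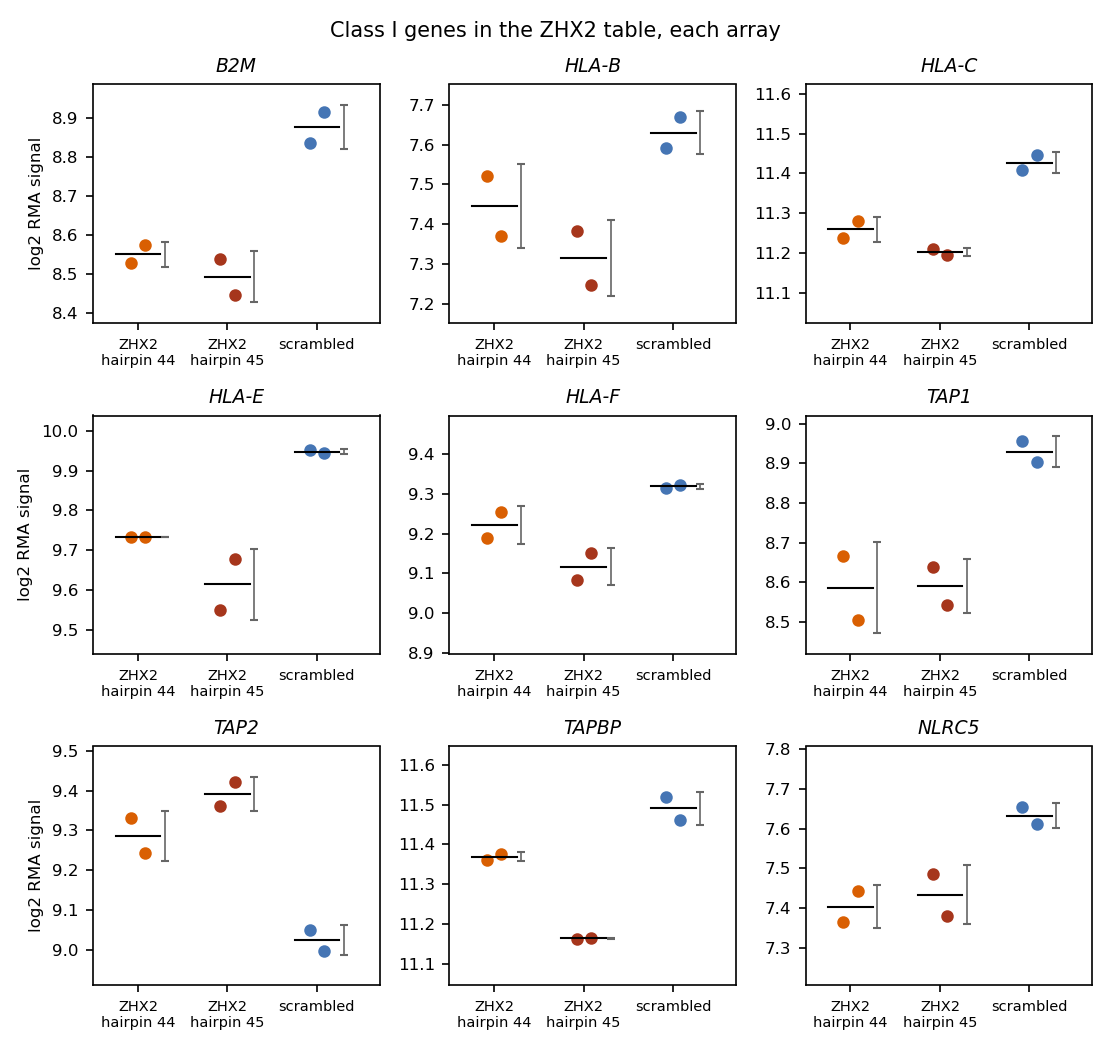
Log2 RMA signal of the 9 class I genes on each array (points) with the group mean (line) and SD over 2 arrays (bracket), for ZHX2 hairpin 44, ZHX2 hairpin 45 and scrambled. The panels share 1 height of scale but not the same origin. The hairpin points lie below the scrambled points in 8 panels and above them in the TAP2 panel.

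B2M, the light chain shared by all class I heavy chains, read 8.53 and 8.57 with hairpin 44, 8.54 and 8.45 with hairpin 45, and 8.84 and 8.92 with the scrambled hairpin. Both hairpins were below both scrambled arrays. The mean difference was -0.36 (SE 0.0683, limma adjusted p = 0.0195), which is 0.782 of the scrambled signal. A second B2M probe set, named by the annotation of the ZHX2 table only, read 7.01 and 7.05, then 6.93 and 6.94, against 7.43 and 7.12 in scrambled cells. It also lay lower without overlap, by 0.29, and did not pass (limma adjusted p = 0.104 over all probe sets).

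HLA-C, a classical heavy chain and a ligand of natural killer cell receptors, read 11.24 and 11.28 with hairpin 44, 11.21 and 11.20 with hairpin 45, and 11.41 and 11.45 with the scrambled hairpin. The replicates lay within 0.05 of each other and the groups were apart. The difference of -0.20 (SE 0.0617) did not pass (limma adjusted p = 0.0824), but passed with the variance following intensity (adjusted p = 0.00151). All 6 HLA-C probe sets lay lower without overlap, between -0.20 and -0.15. HLA-B, the most polymorphic classical heavy chain, had 1 probe set to itself, at 7.52 and 7.37 with hairpin 44, 7.38 and 7.25 with hairpin 45, and 7.59 and 7.67 with the scrambled hairpin. Its groups came within 0.1 of each other without overlapping, and its difference of -0.25 (SE 0.0809) did not pass (limma adjusted p = 0.0892). A probe set annotated to HLA-B and HLA-C together, outside the members, read 11.20 and 11.25, then 11.17 and 11.17, against 11.41 and 11.40 with the scrambled hairpin. Probes for these near-identical genes can cross-hybridise, so their signals are not fully separate measurements.

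HLA-E, the nonclassical heavy chain that presents leader peptides of other class I molecules to the inhibitory receptor NKG2A, read 9.73 and 9.73 with hairpin 44, 9.55 and 9.68 with hairpin 45, and 9.95 and 9.94 with the scrambled hairpin. Every knockdown array was lower than either scrambled array. It fell by 0.27 (SE 0.0678, limma adjusted p = 0.0418), and missed the threshold after median centring (adjusted p = 0.0816) and as the mean of its probe sets (adjusted p = 0.0672). Of its 3 distinct profiles, 2 passed when every probe set was tested, and the third, a dimmer one, was lower by 0.11 with overlapping groups. HLA-F, a nonclassical chain that can reach the surface without peptide, read 9.19 and 9.26 with hairpin 44, 9.08 and 9.15 with hairpin 45, and 9.31 and 9.32 with the scrambled hairpin. It lay slightly lower without overlap, at -0.15 (SE 0.0644, limma adjusted p = 0.176), and its other probe set at -0.25 (limma adjusted p = 0.0524 over all probe sets).

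TAP1 and TAP2, the partners in the peptide pump, went in opposite directions. TAP1 read 8.67 and 8.51 with hairpin 44, 8.64 and 8.54 with hairpin 45, and 8.96 and 8.90 with the scrambled hairpin. It fell by 0.34 (SE 0.0775, limma adjusted p = 0.0325), and both of its distinct profiles passed, at -0.34 and -0.31. After median centring TAP1 differed by -0.30 and no longer passed (limma adjusted p = 0.0562). TAP2 read 9.33 and 9.24 with hairpin 44, 9.36 and 9.42 with hairpin 45, and 9.05 and 8.998 with the scrambled hairpin. All 4 knockdown arrays were above both scrambled arrays, a rise of 0.32 (SE 0.0670, limma adjusted p = 0.0264). All 7 distinct TAP2 profiles were higher without overlap, between 0.21 and 0.36, and 4 of them passed. After a further quantile normalization the TAP2 difference was 0.22 and no longer passed (limma adjusted p = 0.0673). In the RefSeq gene order of chromosome 6, TAP2 and TAP1 stand next to each other but for the immunoproteasome gene PSMB8, and PSMB9 follows TAP1. PSMB8 differed by -0.04 and PSMB9 by -0.23 (limma adjusted p = 0.693 and 0.0838), and neither was called.

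**Figure D3:**
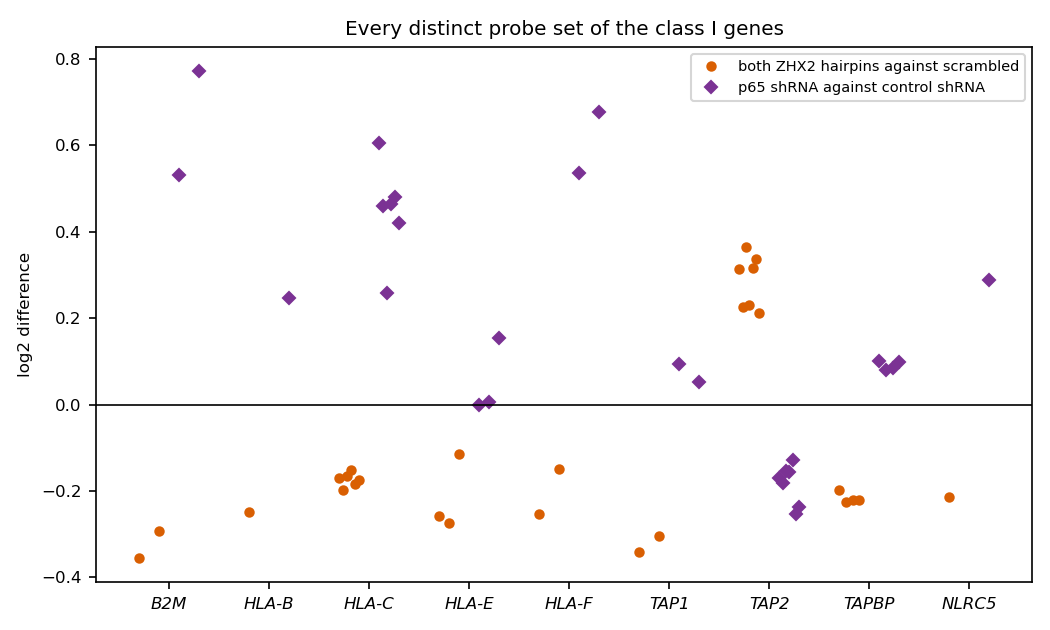
Log2 difference (vertical axis) of each distinct probe set profile of the 9 genes, for both ZHX2 hairpins against scrambled (circles) and p65 shRNA against control shRNA (diamonds). All circles of a gene lie on 1 side of 0, above it for TAP2 (0.21 to 0.36) and below it for the other 8 genes.

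TAPBP, encoding tapasin, which holds heavy chains at the transporter during loading, read 11.36 and 11.38 with hairpin 44, 11.16 and 11.16 with hairpin 45, and 11.52 and 11.46 with the scrambled hairpin. The 3 groups were apart, with hairpin 45 lowest. Its mean difference of -0.22 (SE 0.0617) did not pass (limma adjusted p = 0.0566), nor did any of its 4 profiles, which lay between -0.22 and -0.20. With the variance following intensity the adjusted p was 0.000593. NLRC5, the class I transactivator, read 7.36 and 7.44 with hairpin 44, 7.49 and 7.38 with hairpin 45, and 7.66 and 7.61 with the scrambled hairpin. The knockdown arrays were lower without overlap, at -0.21 (SE 0.0692), and this did not pass (limma adjusted p = 0.0887).

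With each hairpin set alone against scrambled, the directions were the same and the number of calls was not. With hairpin 45, 5 of the 9 genes were called, 4 lower and 1 higher, beside 20.1% of all genes (7.11% lower and 13.0% higher). TAPBP fell by 0.33 (SE 0.0712, limma adjusted p = 0.0266), B2M by 0.38 (adjusted p = 0.0223), TAP1 by 0.34 (adjusted p = 0.0478) and HLA-E by 0.33 (adjusted p = 0.0334), while TAP2 rose by 0.37 (adjusted p = 0.0239). At an unadjusted p under 0.05 there were 9, beside 33.5% of all genes, and with the intensity trend 8 were called, beside 27.9%. In a fit of only the hairpin 45 and scrambled arrays 0 of the 9 were called, beside 14.3% of all genes. With 1 array left out, which leaves 1 array in a group, most or all of these 5 calls were lost. Calls over all genes also became fewer. B2M then differed by -0.43 to -0.34 and TAP2 by 0.34 to 0.40. With hairpin 44, 0 of the 9 were called, beside 7.65% of all genes. At an unadjusted p under 0.05 there were 5, beside 24.5%, and 5 passed with limma's intensity trend, beside 17.6%. B2M differed by -0.33 with hairpin 44 (limma adjusted p = 0.0642), TAP1 by -0.34 (adjusted p = 0.0764) and TAP2 by 0.26 (adjusted p = 0.102). Each hairpin alone was apart from scrambled in 9 of 9 genes, beside 52.2% of all genes for hairpin 44 and 58.9% for hairpin 45. Both comparisons use the same scrambled arrays.

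The difference between the hairpins was tested in itself. None of the 9 genes was called between hairpin 45 and hairpin 44 (0 in limma), beside 0.397% of all genes. At an unadjusted p under 0.05 there was 1, TAPBP, beside 15.1%, and with the intensity trend it was called as well, beside 6.55%. The arrays of the hairpins did not overlap in 5 of the 9 genes, beside 50.4% of all genes. Its difference of -0.21 had a 95% interval of -0.38 to -0.03 (limma adjusted p = 0.271). For TAP1 the difference was 0.01 with an interval of -0.21 to 0.22, and for B2M it was -0.06 with an interval of -0.25 to 0.14. The remaining 6 genes lay between -0.13 (HLA-B) and 0.11 (TAP2), each with an interval that includes 0. The ZHX2 level with each hairpin is given above, and its part in these values was not tested.

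**Figure D4:**
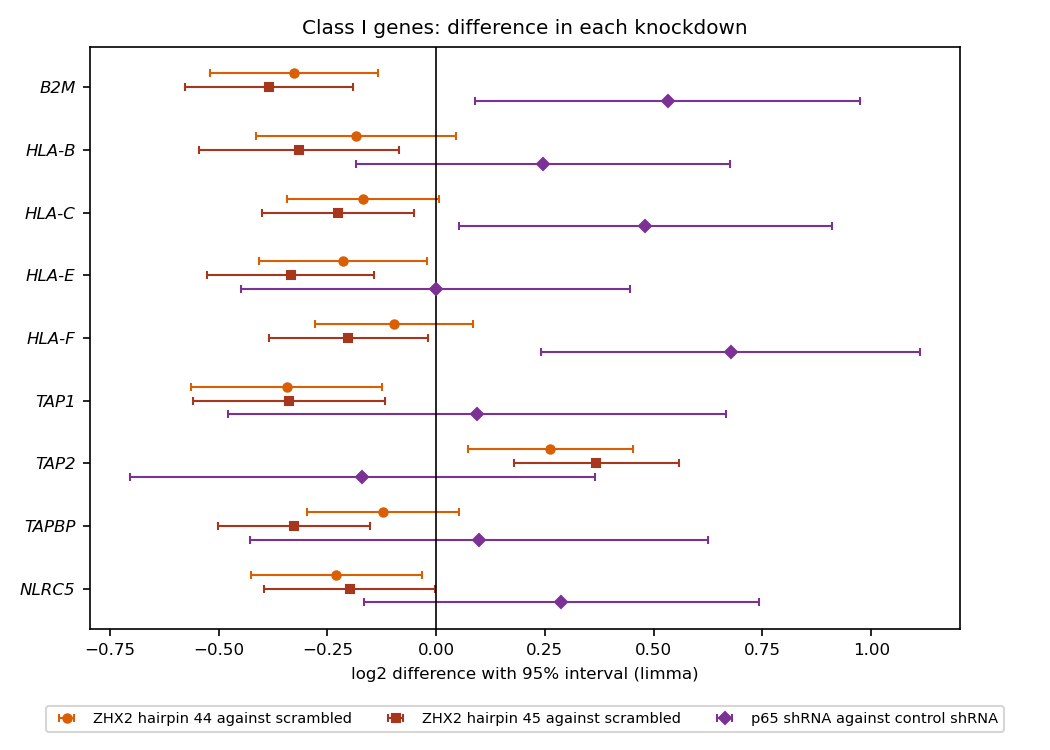
Log2 difference with its 95% interval from limma for each class I gene, in ZHX2 hairpin 44 (circles) and ZHX2 hairpin 45 (squares) against scrambled and in p65 shRNA (diamonds) against control shRNA. With either ZHX2 hairpin 8 genes lie left of 0 and TAP2 right of it, whereas with p65 shRNA 7 genes lie right of 0, with wider intervals.

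The p65 comparison asked how the same genes read when an NF-kB subunit is reduced. Of the 9 genes, 0 were called by limma, beside 0% of all genes. At an unadjusted p under 0.05 there were 3 (B2M, HLA-C and HLA-F), beside 14.3% of all genes, and with the intensity trend 0, beside 3.86%. In 5 of 9 genes the p65 shRNA arrays did not overlap the control arrays, all 5 higher, beside 46.0% of all genes without overlap and 23.3% higher without overlap. The median difference was 0.25, beside 0.01 over all genes.

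HLA-F read 5.53 and 5.37 with p65 shRNA, against 4.72 and 4.82 with control shRNA. Its arrays were well apart and its difference, 0.68 (SE 0.173, limma adjusted p = 0.200), was the largest of the 9 by the brightest probe set; the other HLA-F probe set gave 0.54. Averaged over the probe sets of a gene, B2M (0.65) stood above HLA-F (0.61). B2M read 8.58 and 8.58 with p65 shRNA, against 8.16 and 7.94 with control shRNA. The knockdown arrays were equal to 2 decimals and above both controls, a difference of 0.53 (SE 0.176, limma adjusted p = 0.281, and 0.0501 with the intensity trend). The second B2M probe set read 5.34 and 4.85 with p65 shRNA, against 4.88 and 3.77 with control shRNA, and its groups overlapped at a difference of 0.77. HLA-C read 8.61 and 8.46 with p65 shRNA, against 8.02 and 8.09 with control shRNA. The difference was 0.48 (SE 0.170, limma adjusted p = 0.305), and all 6 HLA-C probe sets were higher without overlap, between 0.26 and 0.60. The probe set shared by HLA-B and HLA-C read 8.69 and 8.49, against 8.002 and 7.99 with control shRNA. HLA-B itself read 5.24 and 5.35 with p65 shRNA, against 5.11 and 4.99 with control shRNA, higher by 0.25 and not called (limma adjusted p = 0.578).

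HLA-E did not separate, at 8.46 and 8.29 with p65 shRNA, against 8.46 and 8.30 with control shRNA. Its difference was -0.00 with a 95% interval of -0.45 to 0.45, so a change of the size seen for HLA-C lies just outside the interval and smaller ones lie within it. The transporter and tapasin genes overlapped too. TAP1 read 5.59 and 5.35 with p65 shRNA, against 5.60 and 5.14 with control shRNA. TAP2 read 5.41 and 5.03, against 5.27 and 5.51, and TAPBP read 7.72 and 7.50, against 7.32 and 7.69. Their differences were 0.09, -0.17 and 0.10, with limma adjusted p from 0.772 to 0.890, and 7 of 7 TAP2 profiles lay below 0. NLRC5 read 2.50 and 2.72 with p65 shRNA, against 2.26 and 2.39 with control shRNA, all below the median gene of their arrays. It stood higher without overlap at 0.29, and was not called (limma adjusted p = 0.535). With an array left out the difference ran from 0.18 to 0.40.

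**Figure D5:**
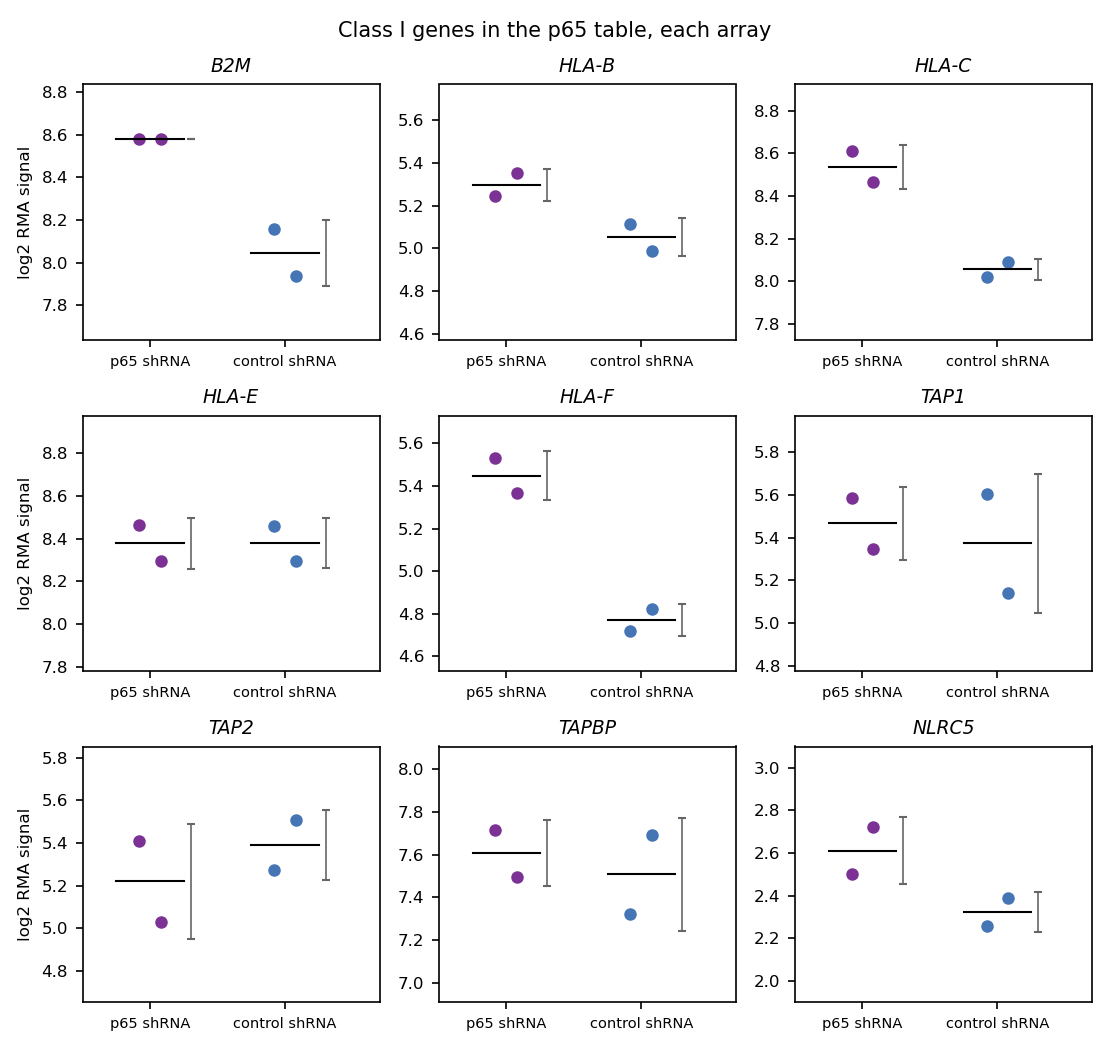
Log2 RMA signal of the 9 class I genes on each array (points) with the group mean (line) and SD over 2 arrays (bracket), for p65 shRNA and control shRNA. The panels share 1 height of scale but not the same origin. The p65 shRNA points lie above the control points for B2M, HLA-B, HLA-C, HLA-F and NLRC5 and overlap them for the other 4 genes.

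Among genes that cut and load class I peptides, 16 of 17 listed were measured. With both ZHX2 hairpins 2 rose, 0 fell and 14 were not called, with a median of -0.01, where 11.9% of all genes were called higher and 6.41% lower. PSME3, a subunit of the nuclear proteasome activator, read 9.59 and 9.66 with hairpin 44, 9.94 and 9.97 with hairpin 45, and 9.27 and 9.16 with the scrambled hairpin. Hairpin 45 was highest and the groups were apart, with a rise of 0.58 (SE 0.0685, limma adjusted p = 0.00518). THOP1, a cytosolic oligopeptidase that destroys class I peptides, read 9.13 and 9.16, then 9.16 and 9.09, against 8.78 and 8.68 with the scrambled hairpin. It rose by 0.41 (SE 0.0674, limma adjusted p = 0.0126), and with scrambled replicate 2 left out it missed the threshold (adjusted p = 0.0602). The immunoproteasome subunits PSMB8, PSMB9 and PSMB10 differed by -0.04, -0.23 and -0.13, and none of these 3 passed (limma adjusted p from 0.0838 to 0.693). The trimming aminopeptidase ERAP1 read 8.18 and 8.26 with hairpin 44, 7.61 and 7.37 with hairpin 45, and 8.33 and 8.05 with the scrambled hairpin. Hairpin 44 overlapped scrambled and hairpin 45 lay below both, so the average of -0.34 (limma adjusted p = 0.0940) joins differences of 0.03 and -0.70. With hairpin 45 alone ERAP1 and TAPBPL, the tapasin-related peptide editor, were called lower (limma adjusted p = 0.0159 and 0.0178). With that hairpin 2 of the 16 were higher, where 13.0% of all genes were called higher and 7.11% lower. With hairpin 44 alone 2 were higher and 0 lower, beside 4.81% and 2.84% of all genes. The difference of ERAP1 between the hairpins, -0.73, was not called (limma adjusted p = 0.110). With p65 shRNA 0 of the 16 were called by limma, beside 0% of all genes, and 6 had an unadjusted p under 0.05, beside 14.3%. The median there was -0.24, and with the intensity trend, which called 3.86% of all genes, 1 fell, the chaperone calnexin (CANX), by 0.45 (limma adjusted p = 0.0366).

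Of 16 listed regulators, 13 were measured, and with both ZHX2 hairpins 3 of them were called, beside 18.3% of all genes. IRF9, the DNA-binding part of the interferon-activated ISGF3 complex, read 7.90 and 8.01 with hairpin 44, 7.87 and 7.95 with hairpin 45, and 8.75 and 8.63 with the scrambled hairpin. The groups were far apart against the spread within them, and IRF9 fell by 0.76 (SE 0.0752, limma adjusted p = 0.00342). With 1 array left out IRF9 differed by -0.82 to -0.70. The mean of its probe sets fell by only 0.32 (limma adjusted p = 0.0237). Its other probe sets therefore on average fell less than the one used, or not at all. With hairpin 44 alone that mean was not called (limma adjusted p = 0.0708). EZH2, the PRC2 methyltransferase, read 10.80 and 10.76, then 10.81 and 10.87, against 10.46 and 10.34 with the scrambled hairpin, and rose by 0.41 (SE 0.0691, limma adjusted p = 0.0129). RELA also rose, by 0.44 (SE 0.0689, limma adjusted p = 0.0112), and the other 10 were not called. Without scrambled replicate 2 neither EZH2 nor RELA passed (limma adjusted p = 0.0611 and 0.0554), and without hairpin 45 replicate 2 EZH2 did not (adjusted p = 0.0511). IRF1, an interferon-induced activator of class I genes, read 8.17 and 8.10, then 8.01 and 7.88, against 7.97 and 8.05, with overlapping groups. With p65 shRNA 0 of the 13 were called in the main test, as of all genes, and 4 had an unadjusted p under 0.05, beside 14.3% of all genes. With the intensity trend (3.86% of all genes) 2 fell, RELA and EZH2. EZH2 read 6.47 and 6.69 there, against 7.26 and 7.38 with control shRNA, a difference of -0.74 (limma adjusted p = 0.0288 with the trend).

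Of 13 other class I and class I-like genes, 12 were measured, and with both ZHX2 hairpins 2 rose, 0 fell and 10 were not called, a share near the 18.3% of all genes called. The 2 were ULBP1 and ULBP3, which encode ligands of the activating receptor NKG2D. ULBP1 read 6.42 and 6.44 with hairpin 44, 6.56 and 6.51 with hairpin 45, and 5.80 and 5.22 with the scrambled hairpin. The knockdown arrays were above both scrambled arrays, which differed widely from each other, and ULBP1 rose by 0.97 (SE 0.158, limma adjusted p = 0.0120). ULBP3 read 7.14 and 7.02, then 7.24 and 7.31, against 6.73 and 6.44, a rise of 0.59 (SE 0.100, limma adjusted p = 0.0136) that did not pass without scrambled replicate 2 (adjusted p = 0.0531). HLA-G differed by -0.24 and HFE by -0.37, without passing (limma adjusted p = 0.0687 and 0.0765). Of the 12, 6 lay above 0 and 6 below it, with a median of 0.03. With hairpin 45 alone 4 were called higher and 0 lower, where 13.0% of all genes were called higher and 7.11% lower. With hairpin 44 alone 1 was higher and 0 lower, beside 4.81% and 2.84% of all genes. With p65 shRNA 0 of the 12 were called by limma, beside 0% of all genes, and 2 had an unadjusted p under 0.05, beside 14.3%. ULBP1 read 5.13 and 2.15, against 2.31 and 3.79 with control shRNA, so that its replicates did not agree on an order.

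Class II genes and their transactivator CIITA gave 11 measured members of 12. With both ZHX2 hairpins 0 were called by limma, beside 18.3% of all genes, 2 had an unadjusted p under 0.05, beside 32.2%, and the median was -0.17. With p65 shRNA 0 were called, beside 0% of all genes, and 1 had an unadjusted p under 0.05, beside 14.3%. The median there was 0.21. Leukocytes would carry class I and class II transcripts. Of 9 measured leukocyte markers 0 were called by limma with both ZHX2 hairpins, beside 18.3% of all genes. With p65 shRNA 0 were called, but so were 0% of all genes, and that count could not show a change in the markers. With both ZHX2 hairpins 7 of the 9 lay below 0 and 2 above it, with a median of -0.07. In limma 1 had an unadjusted p under 0.05, beside 32.2% of all genes. Their summed linear signal was 481 to 492 on the ZHX2 hairpin arrays and 473 to 537 on the scrambled arrays. Of 7 renal markers 3 fell (CDH6 at -1.92, PAX8 at -0.38 and PAX2 at -0.36), 1 rose (KRT18 at 0.62) and 3 were not called (KRT8, VIM and CA12), with a median of -0.03, beside 18.3% of all genes called. Their summed linear signal was 11916 to 13829 on the hairpin arrays and 15593 to 16047 on the scrambled arrays. Of 4 fibroblast markers 1 was called, LUM, which fell by 0.95, and of 4 endothelial markers 0 were called, beside 18.3% of all genes. The part of these markers in the class I values was not tested.

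The genes most like B2M over the 10 arrays, each centred on the mean of its table, were the ubiquitin-like interferon-stimulated gene ISG15 (Pearson r = 0.983), DNM1 (0.980), complement factor B, CFB (0.976), GCC2 (0.973) and FMNL2 (0.973), out of 11212 genes searched. ISG15 read 7.88 and 7.89 with hairpin 44, 7.87 and 7.69 with hairpin 45, and 8.05 and 8.23 with the scrambled hairpin, and 6.01 and 6.06 with p65 shRNA, against 5.63 and 5.42 with control shRNA. Like B2M it was lower without overlap in one table and higher without overlap in the other. It was called in neither comparison (limma adjusted p = 0.0619 and 0.301). The other 4 were called lower with both ZHX2 hairpins, DNM1 at -0.71, CFB at -0.51, FMNL2 at -0.49 and GCC2 at -0.41 (limma adjusted p from 0.00263 to 0.0116), and without scrambled replicate 2 CFB was not (adjusted p = 0.0682). None of the 5 was called with p65 shRNA (0 in limma), where all 5 stood higher, between 0.50 and 0.82, at unadjusted p from 0.00676 to 0.0321. They were picked by their likeness over the same arrays, so their directions and calls are a description. With both ZHX2 hairpins 6.41% of all genes were called lower. For NLRC5 the closest were CCDC71L (0.967), SFMBT2 (0.946), MIR4500 (0.946), SDR16C6P (0.944) and PCDHB19P (0.935). All but SDR16C6P were called lower with both ZHX2 hairpins, beside 6.41% of all genes. These genes too were picked over the same arrays, so their calls are a description. In the p65 table SDR16C6P read 0.69 to 1.46, and PCDHB19P read 1.42 and 1.37 with control shRNA. Those values lie below the median probe set of the arrays (1.87 to 1.89). SFMBT2 no longer passed after median centring (limma adjusted p = 0.0517) or with the replicate number as a block (adjusted p = 0.0518). MIR4500 differed by -0.49, and by -0.64 to -0.34 with 1 array left out, which leaves 1 array in a group. Most of these omissions lost the MIR4500 call, and all of them lost the SFMBT2 call. Among the members, B2M correlated with HLA-C at 0.908, HLA-B at 0.890, HLA-E at 0.546 and TAP2 at -0.75. These values describe 10 arrays in 5 groups of replicates that share a table and its normalization, and the p65 table, with the wider spread, weighs more in them.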

How the data were processed

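Total RNA of 10 samples was hybridised to Affymetrix arrays. The authors deposited log2 signals for 53617 probe sets in each of 2 tables (6 and 4 arrays), made with RMA per the submitters' processing notes. For the RMA software, the probe annotation and the genome build, the version is not given in the sources used here. Array medians were 6.15 to 6.22 in the ZHX2 table and 1.87 to 1.89 in the p65 table. Precision is limited by the number of arrays. Detection above background was not used, so no probe set was called absent.

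Probe sets were named by joining both platform annotations, with a single gene for 16098 and 23862 of them, and symbols were updated for 653 through RefSeq GRCh38.p14. This left 27196 with no gene, 1851 with several and 99 with different genes, all unnamed. For each gene the probe set with the highest mean signal in a table was tested, so HLA-C, HLA-E, TAP2 and TAPBP use different ones in the 2 tables. Fits used limma 3.58.1 in R 4.3.3 with empirical Bayes moderation, on all 6 arrays (3 residual degrees of freedom) or all 4 (2). Calls are at a Benjamini-Hochberg adjusted p under 0.05 over all 22426 genes. The fit was tested on simulated data.

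The members and lists were chosen with earlier results of these data known. Named were the members, both targeted genes, list genes called for both hairpins, and the 5 genes most like B2M and NLRC5; ISG15, IRF1, PSMB8, PSMB9, PSMB10, ERAP1, TAPBPL, HLA-G, HFE, CANX and the markers were added after their values were seen. Same-numbered replicates did not deviate together (correlations from -0.03 to 0.05), so their numbers were not used as pairs. Alternatives were an intensity trend, median centring, quantile normalization, a filter on the dimmest 40% of probe sets, averaging the probe sets of a gene, testing every probe set, a replicate block, fits restricted to the compared groups, and omission of each array.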

Additional observations from a re-analysis of the deposited data

How the results depend on the processing

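Among the 9 class I genes, the number called for both ZHX2 hairpins was 4 in the main fit. It was 6 with the intensity trend (26.2% of all genes), 2 after median centring (TAP2 and B2M; 18.7% of all genes), 6 after quantile normalization (6 lower and 0 higher; 17.7%), 8 without dim probe sets, where 32% of the genes left were called against 18.3% in the main fit, 3 with a gene's probe sets averaged (18%) and 4 with every probe set tested (17.5%), and 0 to 1 with an array left out (7.97% to 14.9%). For hairpin 45 it was 5 (20.1% of all genes), 8 with the trend (27.9%) and 2 after centring (20.5%). In a fit of only the hairpin 45 and scrambled arrays it was 0, beside 14.3% of all genes. With an array left out most or all of the 5 calls of the main fit were lost, and fewer of all genes were called. For hairpin 44 it was 0 (7.65%), and 5 with the trend (17.6%). It was 2 there after quantile normalization (8.29%) and 3 without dim probe sets (18.6% of the genes left). Between the hairpins it was 0 (0.397%), and 1 (TAPBP) with the trend (6.55%). For p65 shRNA it was 0 under every alternative run. The same-numbered arrays could not be taken as pairs. With the replicate number as a block the counts were 3 for both hairpins (15.1% of all genes) and 3 for hairpin 45 (16.9%). They were 0 for hairpin 44 (3.66%), for hairpin 45 against hairpin 44 (0.0491%) and for p65 shRNA (0%). Over all genes the calls for both hairpins numbered 4102 in the main fit and 1788 to 3340 with an array left out. For hairpin 44 they numbered 1716, and 3941 with the trend, 3062 without dim probe sets, 820 with the block and 575 in a fit of only the groups compared; for p65 shRNA 0, and 866 with the trend. The share of higher calls for both hairpins was 64.9%, and 53.2% after quantile normalization. With an array left out, B2M differed by -0.40 to -0.32 (limma adjusted p from 0.0435 to 0.0874), and HLA-E, TAP1 and TAP2 were not called for both hairpins. No class I gene changed direction against scrambled under any alternative run. Between the hairpins, the sign of TAP1 turned after quantile normalization (-0.0334) and that of THOP1 after centring (0.00072). With an array left out TAP1 ran from -0.0761 to 0.0863, NLRC5 from -0.0224 to 0.0833, IRF9 from -0.10 to 0.00558 and THOP1 from -0.0533 to 0.0112. With p65 shRNA, HLA-E was 0.00824 after quantile normalization and 0.0582 as the mean of its probe sets. With an array left out HLA-E ran from -0.0856 to 0.0829, TAP1 from -0.14 to 0.33, TAP2 from -0.36 to 0.0217, TAPBP from -0.0868 to 0.29, ZHX2 from -0.19 to 0.0101, ULBP1 from -0.90 to 2.08 and ULBP3 from -1.20 to 0.0595. The cause of these changes was not tested. In the p65 table NLRC5 read 2.26 to 2.72, below the median gene of its arrays (2.83 to 2.89) and above the median probe set (1.87 to 1.89). Whether this level limits what its signal can show was not tested.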
